A study of Mus musculus with 8 samples.

Results

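The cytosolic ribosomal protein genes encode the proteins of the small and large ribosomal subunits that translate messenger RNA in the cytoplasm. They were examined in round spermatids, the haploid male germ cells that follow meiosis, of mice carrying the BrdtΔBD1 allele and of control mice. Members were the genes whose symbol is Rpsa or begins with Rpl, Rps or Rplp followed by a digit, without the Rps6k kinases and without pseudogenes. A gene needed a probe set (a group of short oligonucleotides that reads 1 transcript region on the array) annotated to that gene alone, and where it had several, the one whose mean of the 8 arrays was highest was used. This gave 50 members of 18193 genes measured: 21 proteins of the small subunit, 20 of the large subunit, 2 of the P stalk (Rplp0 and Rplp2), 6 paralogs and Rps19bp1. The last one meets the naming rule, but its product is a protein that binds Rps19 and is not part of the ribosome. Of 77 canonical ribosomal protein genes, 43 were members, 27 were named only by probe sets that several genes share, and 7 were not analysed here.

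The mutant group carried the BrdtΔBD1 allele, which lacks the first of the bromodomains of Brdt, a testis-specific protein that binds acetylated histones, and the other group is labelled control. Both groups were 129 Sv/Ev mice of 2 to 4 months, and no treatment other than the cell preparation is given. Each group had 4 arrays and each array held RNA pooled from 7 animals, so differences between single animals were not measured, p-values rest on the spread between these arrays, and fewer cells of a type cannot be told apart from less RNA per cell. Round spermatids were separated on a gradient of bovine serum albumin between 4% and 2%, and total RNA was hybridised to Affymetrix mouse arrays. Values are log2 intensities as the authors deposited them. A difference of 1 is a change of 2-fold in intensity, and intensities of different probe sets are not set against each other as RNA amounts, since they also depend on the probes.

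A ribosome holds 1 copy of nearly every ribosomal protein, and transcription of these genes is known to be kept in step. Their messenger RNAs belong to the TOP class, which begins with a run of pyrimidines through which growth signals control translation. During meiosis the X chromosome is silenced, and autosomal paralogs of X-linked ribosomal protein genes are known to be expressed in male germ cells. Rps4x and Rpl39 are the X-linked members measured here, and Rps4l and Rpl39l are their autosomal relatives.

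The data below turn on Rps4x, on Rpl39 with its paralog Rpl39l, and on the paralog Rpl7l1, so the 200 bases before the annotated start of each are shown. The sequences are from RefSeq on GRCm38.p6, run 5′ to 3′ on the strand of the gene, and carry in capitals each match to CCGGAA, the core letters of ETS-type binding motifs, on either strand.
Rps4x, chrX:102189392-102189591, minus strand: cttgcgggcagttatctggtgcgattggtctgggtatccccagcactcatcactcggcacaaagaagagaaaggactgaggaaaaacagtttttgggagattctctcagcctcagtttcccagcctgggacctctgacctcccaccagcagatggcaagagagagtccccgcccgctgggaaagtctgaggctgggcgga
Rpl39, chrX:37085223-37085422, minus strand: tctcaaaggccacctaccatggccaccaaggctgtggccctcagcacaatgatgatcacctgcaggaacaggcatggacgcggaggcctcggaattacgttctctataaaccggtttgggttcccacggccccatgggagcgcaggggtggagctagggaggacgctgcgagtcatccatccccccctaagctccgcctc
Rpl39l, chr16:10170028-10170227, plus strand: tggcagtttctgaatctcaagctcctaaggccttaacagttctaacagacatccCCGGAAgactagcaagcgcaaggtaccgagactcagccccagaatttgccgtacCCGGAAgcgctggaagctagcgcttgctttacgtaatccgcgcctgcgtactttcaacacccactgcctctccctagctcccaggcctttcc
Rpl7l1, chr17:46782657-46782856, minus strand: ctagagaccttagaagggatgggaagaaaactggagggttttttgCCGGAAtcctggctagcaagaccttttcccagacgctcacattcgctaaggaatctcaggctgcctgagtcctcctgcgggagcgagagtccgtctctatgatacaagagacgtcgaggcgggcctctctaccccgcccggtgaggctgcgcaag
Windows from 250 bases before to 50 bases after the start were held for 44 of the 50 members, and 28 of these (63.6%) contained CCGGAA on either strand, against 4503 of 27025 genes with a window (16.7%). The pyrimidine-rich letters CTTTCC, also searched on both strands, occurred for 52.3% of these members and for 29.3% of all genes with a window. A gene was counted if any of its windows held the letters. The 2 motifs can share bases where they overlap. The windows of Rpl39l and Rpl7l1 held CCGGAA in the stretch shown, that of Rpl39 held it outside the stretch shown, and the letters were not in the window of Rps4x. The median log2 difference between mutant and control was 0.06 for members with CCGGAA and 0.08 for those without it. For CTTTCC the medians were 0.10 with it and 0.01 without it, and neither split was tested. These are matches of letters and no binding was measured.

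The arrays were checked before the members were compared, and here too a gene rose or fell only if it passed the limma test described below. Markers of round spermatids averaged 13.22 to 13.62 on all 8 arrays, and none of the 27 measured rose or fell. Sertoli cell markers were the list of other testis cells with the most calls: of 25 measured 7 rose and none fell, 22 were higher in the mutant, and the median log2 difference was 1.47. Their mean was 4.62 to 5.43 on control arrays and 5.57 to 7.05 on mutant arrays. The 4 that rose with the smallest adjusted p were Vim (from 6.29 to 9.24), Cldn11 (from 4.17 to 5.89), Fabp5 (from 3.72 to 7.73) and Defb19 (from 8.41 to 11.41). Sox9 and Amh of the same list were named after their values were seen. Sox9 averaged 3.80 in both groups and Amh 1.97 in control and 1.95 in mutant, all under 4. Among 13 Leydig cell markers Aldh1a1 (from 3.48 to 5.99) and Gsta2 (from 3.67 to 6.32) rose. Among 31 spermatocyte markers H1f6 rose (from 3.95 to 4.58), and among 24 peritubular, vascular and blood markers Lum rose (from 2.85 to 3.91). The control means of these genes were under 4 too, and none of these 3 lists had a gene that fell. Over all genes 3.71% passed in either direction. The spermatocyte mean was 8.26 to 8.64 on control arrays and 8.31 to 9.06 on mutant arrays, which overlap. In RNA quality, control arrays 1 and 3 stood apart: the 3′ Gapdh control exceeded the 5′ control by 1.68 and 2.05 there and by 0.33 to 0.94 on the other 6 arrays. Without control arrays 1 and 3 none of the 50 members passed the test described below, and their median difference was 0.21, against 0.08 with all arrays. Of all 18193 genes 68 passed in that fit, against 675 with all arrays.

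Ribosomal protein messenger RNAs gave strong signals in both genotypes. Of the 50 members, 37 had a mean of at least 10, a level reached by 15.4% of all genes, and 28 had a mean of at least 12. The median member mean was 12.35 and the means ran from 2.12 (Rps16) to 15.0 (Rps29). Rps29 of the small subunit read 15.12, 14.89, 14.95 and 14.84 on control arrays 1 to 4 and 15.18, 14.98, 15.01 and 15.01 on mutant arrays 1 to 4. The groups overlapped and differed by 0.10 ± 0.11 (log2, SE, n = 4 per group). The next highest means were those of Rps20 (14.58), Rps28 (14.43), Rps7 (14.36) and Rpl37a (14.23), all structural proteins of the ribosome.

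At the other end 6 members had a mean under 4: Rps16, Rpl12, Rps6, Rpl14, Rps25 and the muscle paralog Rpl3l. Rps6 is the small-subunit protein phosphorylated by the S6 kinases, and its single-gene probe set averaged 2.63. Of these 6 genes, 5 are also named by probe sets that several genes share, and the brightest of those averaged between 11.25 and 14.05. The low readings of these 5 are those of the single-gene probe set that the rule selects.

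No member passed the test between genotypes. With limma, a linear model fitted to all 18193 genes p-values adjusted by Benjamini-Hochberg and a threshold of 0.05, 0 of 50 members rose and 0 fell, where 3.71% of all genes passed in either direction. At an unadjusted p under 0.05 there were 2 members, Rps4x and Rpl7l1, where 20.2% of all genes passed. The arrays of the 2 groups did not overlap for 1 member, Rps4x, where 12.6% of all genes did not overlap. Of the members 38 were higher and 12 lower in the mutant, where 8427 of all 18193 genes were higher. The median log2 difference of the members was 0.08, against -0.02 over all genes. Without mutant array 1 the member median was -0.003, and 15 members changed sign.

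**Figure D1:**
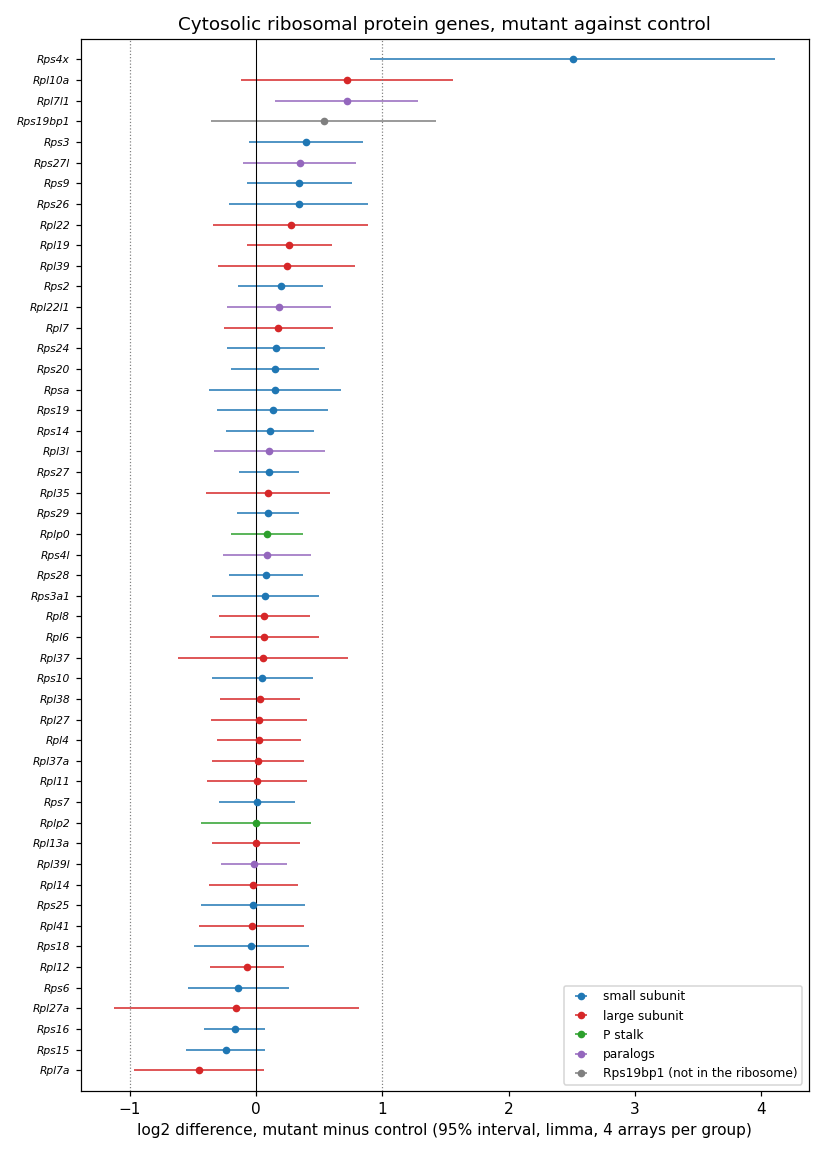
Log2 difference between mutant and control for each of the 50 members (points) with 95% intervals from limma (bars), coloured by subunit or class and ordered by size; dotted lines mark 2-fold. All points but that of Rps4x lie between -0.45 and 0.72, and the interval of Rps4x runs from 0.90 to 4.11.

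The intervals show how large a difference the fit without the replicate block leaves possible. With the block the SE was smaller for most members, as for Rps26 (0.24 without and 0.11 with it). The 95% interval of the log2 difference lay within 2-fold in either direction for 45 of 50 members and within 1.5-fold for 32. Among the 37 members with a mean of at least 10, the median half-width was 0.40 (1.31-fold), and the bounds reached from -0.96 for Rpl7a to 1.56 for Rpl10a. Without Rps4x and Rps19bp1 the differences ran from -0.45 to 0.72. The plot of log2 differences shows the members close to 0 with Rps4x apart from them.

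Small-subunit proteins other than Rps4x differed little. Their class had a median difference of 0.10 with Rps4x included, 16 of 21 were higher in the mutant and none passed. Rps3, which lines the entry channel of the messenger RNA, read 10.60, 10.37, 10.74 and 10.41 on the control arrays and 11.39, 11.09, 10.74 and 10.48 on the mutant arrays. The ranges overlapped, and the difference was 0.39 ± 0.20 (SE; limma adjusted p = 0.313). Rps9 was higher by 0.34 (adjusted p = 0.345) and Rps26 by 0.34 (adjusted p = 0.493). Rps15, which lies near the decoding site, was lower by 0.24 in the mutant mean (13.08 in control, 12.84 in mutant), with an adjusted p of 0.375 and overlapping groups. Rpsa, the laminin receptor that is also a small-subunit protein, differed by 0.15 ± 0.23 (SE).

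Large-subunit proteins had a median difference of 0.03, with 14 of 20 higher in the mutant and none past the test. Rpl10a, a protein of the L1 stalk, read 10.90, 10.36, 10.64 and 9.87 on the control arrays and 11.91, 11.63, 10.89 and 10.23 on the mutant arrays. Mutant arrays 1 and 2 were above every control array, and mutant arrays 3 and 4 lay among them. Each mutant array was above the control array of the same number. The difference was 0.72 ± 0.37 (SE), with a limma adjusted p of 0.320, and of 0.0633 with the replicate block. Rpl7a had the most negative difference of all members, with 12.81, 12.51, 12.41 and 12.57 on the control arrays and 12.49, 12.57, 11.82 and 11.62 on the mutant arrays. Mutant arrays 3 and 4 lay below every control array, mutant arrays 1 and 2 did not, and the difference was -0.45 ± 0.23 (SE; adjusted p = 0.309). Rpl19 was higher by 0.26 (adjusted p = 0.370).

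The P stalk is the lateral arm of the large subunit that recruits elongation factors. Its base protein Rplp0 averaged 13.77 ± 0.10 in control and 13.86 ± 0.20 in mutant (SD, n = 4 each), a difference of 0.09 with an interval from -0.20 to 0.38. Rplp2 averaged 13.57 in both groups. For both the groups overlapped.

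Rps4x was the exception among the members. This X-linked small-subunit gene read 4.71, 4.47, 4.90 and 4.07 on control arrays 1 to 4 and 9.03, 5.53, 7.81 and 5.80 on mutant arrays 1 to 4. Every mutant array was above every control array, and the mutant arrays were spread widely, with 1 and 3 far above 2 and 4. The means were 4.53 ± 0.36 and 7.04 ± 1.67 (SD, n = 4 each), and the log2 difference of 2.51 ± 0.71 (SE), or 5.69-fold, had a limma adjusted p of 0.0892. The median of all genes on the control arrays was 3.85 to 3.92, so the fold was taken from a dim control signal. With the replicate number as a block the adjusted p was 0.0290, so that Rps4x was then the only member that rose, where 6.6% of all genes rose and 4.94% fell in that fit. Of 8 fits that each left out 1 array, 1 had an Rps4x adjusted p under the threshold (0.0320), and the highest was 0.209. The fit under the threshold left out mutant array 2, where Rps4x was lowest of the mutant group. In that fit 1131 of 18193 genes passed, in either direction.

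The Rps4x signal was set beside markers of other testis cells. The Sertoli marker mean was highest on mutant arrays 3 (7.05) and 1 (6.85), the arrays with the highest Rps4x, and lowest of the mutant arrays on array 2 (5.57). Mutant array 4 had a Sertoli mean of 6.64 with Rps4x at 5.80. The spermatogonia marker mean was 5.66 and 5.31 on mutant arrays 1 and 3, 5.04 and 5.11 on mutant arrays 2 and 4 and 4.45 to 4.81 on control arrays. Of 22 spermatogonia markers 1 rose, Etv5 (from 3.62 to 4.90), and none fell. With the Sertoli mean as a covariate the Rps4x difference was 0.65 ± 1.12 (SE; limma adjusted p = 0.910). Every mutant array had a higher Sertoli mean than any control array, so that fit can hardly separate this mean from genotype. Of all 18193 genes 1 passed in it. The part of other cells in the Rps4x difference was not tested.

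**Figure D2:**
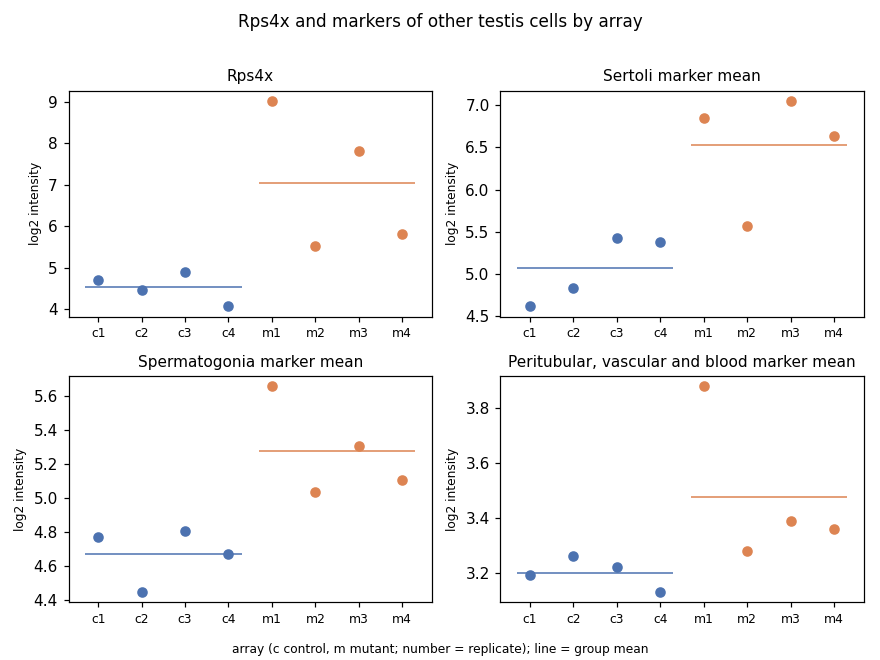
Log2 intensity of Rps4x and the mean log2 intensity of the Sertoli, spermatogonia and peritubular, vascular and blood marker lists on each array (points, c control, m mutant, with the replicate number); lines are group means and each panel has its own axis. Rps4x and the spermatogonia mean are highest on mutant arrays 1 and 3, and the Sertoli mean is highest on mutant arrays 3 and 1.

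A second single-gene probe set of Rps4x did not show the difference. It averaged 2.96 in control and 2.88 in mutant, a difference of -0.08 near the bottom of the intensity range. With the mean of both probe sets the Rps4x difference was 1.22. Of all 618 X-linked genes 6 rose and 5 fell without the block, and 39 rose and 14 fell with it, with a median difference of 0.02. Over all genes 3.71% passed in either direction without the block, and 6.6% rose and 4.94% fell with it.

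The other X-linked member, Rpl39, encodes a small protein of the exit tunnel. It read 5.20, 5.74, 5.25 and 4.65 on the control arrays and 5.68, 5.39, 5.69 and 5.04 on the mutant arrays. The groups overlapped fully, and the difference was 0.24 ± 0.24 (SE; limma adjusted p = 0.640).

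The autosomal paralogs of both X-linked genes differed little between the groups. Rpl39l, on chromosome 16, read 13.66, 13.50, 13.41 and 13.42 on the control arrays and 13.66, 13.50, 13.34 and 13.43 on the mutant arrays. The same-numbered arrays were almost equal, and the difference was -0.01 with an interval from -0.28 to 0.25. Rps4l, on chromosome 6, read 12.64, 12.48, 12.34 and 12.26 on the control arrays and 12.59, 12.84, 12.35 and 12.28 on the mutant arrays. Its difference was 0.09 with an interval from -0.26 to 0.43, and the groups overlapped.

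Among the paralogs Rpl7l1 had the largest difference. Its product resembles Rpl7 and is known from the assembly of the large subunit. It read 4.48, 4.59, 5.10 and 4.58 on the control arrays and 5.79, 5.82, 5.23 and 4.79 on the mutant arrays. Mutant arrays 1, 2 and 3 were above every control array and mutant array 4 was below control array 3. The difference was 0.72 ± 0.25 (SE; limma adjusted p = 0.150). Its other single-gene probe sets were higher in the mutant by 1.15 and 0.31, and the larger of these had an adjusted p of 0.110 over all probe sets. Rpl7 itself differed by 0.18 ± 0.19 (SE).

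Rps27l, a paralog of Rps27 known as a p53 target, was higher by 0.35 ± 0.20 (SE; adjusted p = 0.376), and its 3 probe sets differed by 0.29 to 0.40. Rps27 differed by 0.10 (adjusted p = 0.650). Rpl22l1 differed by 0.18 and its partner Rpl22 by 0.28, with adjusted p of 0.647 and 0.637. Rpl3l, known from striated muscle, averaged 3.57 in control and 3.67 in mutant. None of these pairs had a member that passed, and differences within a pair were not tested.

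**Figure D3:**
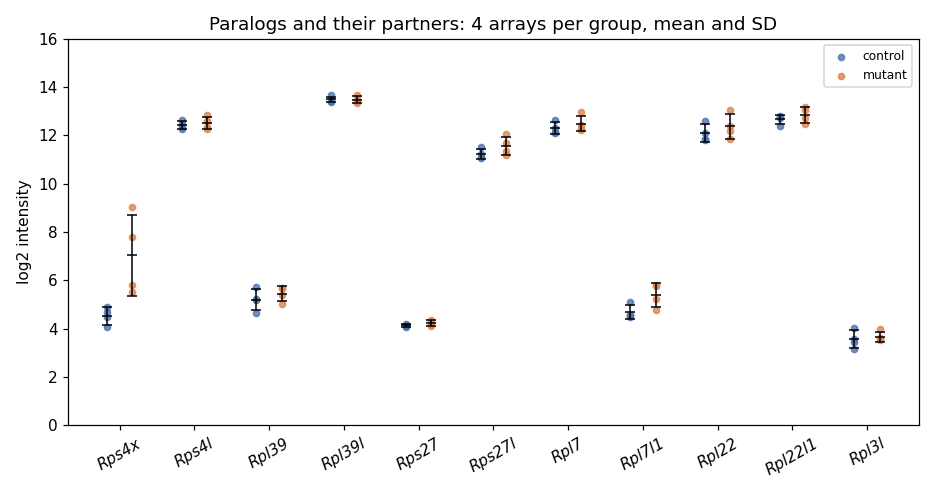
Log2 intensity of the paralogs and their canonical partners on each array (points, control left and mutant right of each gene), with group mean and SD as bars (n = 4 per group). The mutant points of Rps4x spread from 5.53 to 9.03 above all control points, while those of Rps4l and Rpl39l overlap with control.

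Rps19bp1, whose product is no ribosomal protein, varied within the mutant group, with 6.55, 7.51, 6.12 and 5.36 on mutant arrays 1 to 4 and 5.48 to 6.10 on the control arrays. The difference was 0.54 ± 0.39 (SE; limma adjusted p = 0.507). The widest spread within groups, after that of Rps4x, was that of Rpl27a, at 4.67 to 6.64 in control and 5.14 to 6.22 in mutant.

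The members shared most of their variation between arrays with the replicate number. For 40 of 50 members control array 1 was the highest control array, and for 41 of 50 mutant array 1 was the highest mutant array. Control array 4 was the lowest of its group for 25 members and mutant array 4 for 37. Among members with a mean of at least 10, the median deviation from the gene's own mean was 0.22, -0.13, -0.07 and -0.19 on control arrays 1 to 4. On mutant arrays 1 to 4 it was 0.33, 0.15, -0.08 and -0.22. The arrays numbered 1, 3 and 4 lay on the same side of 0 in both groups, and those numbered 2 lay on opposite sides.

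**Figure D4:**
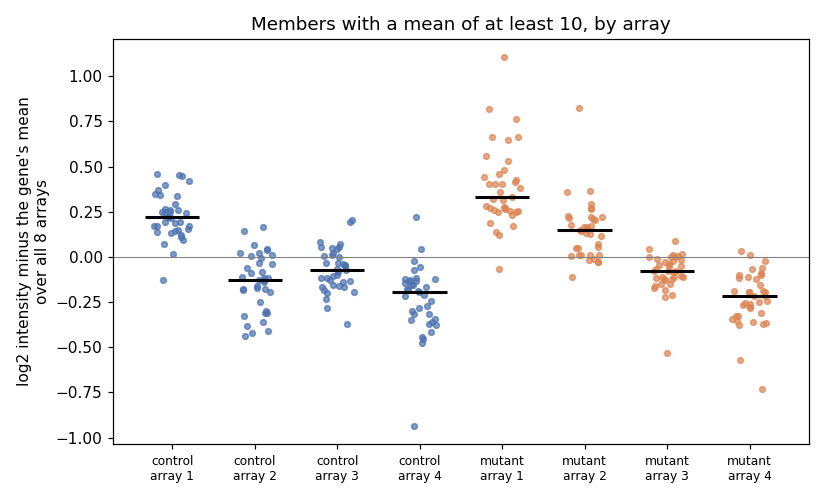
Deviation of each of the 37 members with a mean of at least 10 from its own mean over all 8 arrays (points, log2), by array; black bars are medians. Both arrays numbered 1 lie highest, at medians of 0.22 and 0.33, and both arrays numbered 4 lie lowest, at -0.19 and -0.22.

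Split by source, the median share of a member's variance was 6.91% for genotype, 78.6% for the replicate number and 12.1% for the rest. The medians over all 18193 genes were 17.8%, 47.9% and 21.9%. For the 37 members with a mean of at least 10 they were 6.1%, 81.6% and 9.74%. The 2809 genes with such a mean had 17.6%, 59.1% and 15.0%. The replicate number has more levels than genotype, so noise alone gives it a larger share. For Rps4x the shares were 59.0%, 26.6% and 14.4%. Within same-numbered pairs, 14 of 50 members were higher in the mutant in all 4 pairs, where 17.7% of all genes were. Rps16 was the 1 member lower in all 4, and the share of all genes that were was not counted. Its mean of 2.12 was the lowest of the members, and it read 2.185 on mutant array 4 against 2.19 on control array 4. Other measures varied between the arrays too. The 18S ribosomal RNA probe sets averaged 11.2, 5.51, 8.87 and 3.65 on control arrays 1 to 4 and 8.11, 5.40, 5.03 and 3.99 on mutant arrays 1 to 4. The spermatocyte marker mean was 8.64, 8.45, 8.32 and 8.26 on control arrays 1 to 4 and 9.06, 8.92, 8.52 and 8.31 on mutant arrays 1 to 4. Both were highest on array 1 and lowest on array 4 of each group, while 18S was much higher on control array 3 than on mutant array 3. Their part in the variation of the members was not tested.

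Most other probe sets of the same genes gave values close to those above. The 106 single-gene probe sets of the members had a median difference of 0.06, and none passed at the level of probe sets, where 1.42% of all probe sets did. For 19 members with at least 2 probe sets of mean 4 or more, the widest gap between their differences was 0.43 (Rpl7l1), followed by 0.18 (Rpl13a), 0.17 (Rpl41), 0.15 (Rps10 and Rpl35) and 0.12 (Rpl27). Probe sets that several genes share and that name a ribosomal protein numbered 110, with a median difference of 0.04 and none past the test. Their differences ran from -1.62 to 1.38, and from -0.23 to 1.21 for the 78 with a mean of at least 10. The smallest limma adjusted p was 0.0682, reached among these 78. At the same level the Rps4x probe set used here had an adjusted p of 0.134. The shared probe sets cover many of the canonical genes that no single-gene probe set reads, but each can mix several genes. Pseudogenes of this family are numerous, and 16 members were read by probe sets that the array's makers mark as open to cross-hybridisation.

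Genes that act with the ribosome were read from lists beside the members. Their counts stand against 3.71% of all genes called in either direction, and with the block 6.6% that rose and 4.94% that fell. Of 17 other TOP genes measured, such as elongation factors, 0 rose and 0 fell, with a median of 0.02. Fau, whose product is cleaved to a small-subunit protein, differed by -0.01 (limma adjusted p = 0.974). Of 74 ribosome biogenesis genes 1 rose and 0 fell (7 and 4 with the block), with a median of 0.08. The gene that rose was Rrs1, an assembly factor of the large subunit, from 4.35 ± 0.22 to 5.74 ± 0.29 (SD, n = 4 each), with an adjusted p of 0.00535. Of 15 genes of RNA polymerase I and ribosomal DNA transcription 0 rose and 0 fell (1 and 2 with the block). Of 17 chaperones and export factors of ribosomal proteins 0 rose and 0 fell (3 and 0 with the block).

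Proteins of the mitochondrial ribosome, which is built separately, gave 1 rise and 1 fall among 76 genes (4 and 4 with the block) and a median of -0.05. Mrpl48 rose by 0.93 ± 0.11 (SE; limma adjusted p = 0.00391), and Mrpl11 fell by 0.51 ± 0.11 (SE; adjusted p = 0.0375). The arrays of the 2 groups did not overlap for either gene.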

How the data were processed

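Each probe set has 1 deposited log2 intensity per array, already normalized. GCRMA, a background correction and normalization that flattens dim signals, and limma are named in the submitters' processing notes, their versions not given in the sources used here. Scanner files were not used here. The 64 control probe sets were left out, and 34945 of the other 45037 carry 1 gene in the platform annotation, 932 several and 9160 none. Gene values were fitted in limma 3.58.1 under R 4.3.3 (group as the only term, both directions, adjustment over 18193 genes); intervals are at 95%. The fit was tested on simulated data. Groups came from the sample titles. Array number, not sequencing depth, limits precision.

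Deviations of same-numbered arrays from their group means correlated at 0.364 to 0.495 across genes, and those of other combinations at -0.261 to -0.0169, so the numbers pair the arrays, and a replicate block was fitted as an alternative. This pairing comes from the values, since the labels do not say what a number marks.

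Members and lists were chosen with earlier results of these data known. Named were members with the smallest p in each direction, the brightest, the most variable, paralogs with partners, stalk proteins, Rps19bp1, those with the widest gaps between probe sets, and up to 4 genes past the threshold in each list. Rps24, and Sox9 and Amh, were named after their values were seen.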

Additional observations from a re-analysis of the deposited data

Results flagged for a closer look

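In 78 groups of 4 arrays (39 named members in each genotype), 6 held an array far from the other 3, where chance alone gives about 1 in 20 groups. For 3 of them it was mutant array 1 that lay above the rest: Rps9 read 12.03 there against 11.35 to 11.40, Rps28 read 14.71 against 14.36 to 14.41, and Rps29 read 15.18 against 14.98 to 15.01. Rpl19 read 12.47 on control array 1, with 12.08 to 12.13 on the other control arrays. These are the arrays numbered 1, which were the highest of their group for most members. Rpl7l1 read 5.10 on control array 3 against 4.48 to 4.59, and Rpl3l read 3.98 on mutant array 2 against 3.52 to 3.60. None of these genes passed the limma test between genotypes.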

How the results depend on the processing

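Of 19 alternatives, 0 members fell in any. Rps4x alone rose with the replicate block, with a trend and robust variances, with array weights and without mutant array 2. Genes called in these fits, in either direction, numbered 2100, 856, 1655 and 1131 of 18193, in that order. With no _s_at or _x_at probe sets 1 member rose (Rps24), where 642 of 17903 genes were called. Leaving out 1 array at a time gave 0 to 1 risen members. With no _s_at or _x_at probe sets Rps24 was read by another probe set, at 3.48 in control and 4.08 in mutant (limma adjusted p = 0.0463). Its brightest probe set, used in the main fit, averaged 13.57 in control and 13.73 in mutant. The difference there was 0.16 (limma adjusted p = 0.668). In the paired fit the adjusted p of Rps4x was 0.0290, and the block changed no other call among members. Over all 19, Rps4x ranged from 0.65 to 3.01, with adjusted p from 0.0242 to 0.910. Leaving out 1 array gave 1.85 to 3.01. The member median was -0.003 without mutant array 1, where 15 members changed sign, 0.209 without control arrays 1 and 3, and 0.312 with the Sertoli covariate. With that covariate 1 of 18193 genes passed. The cause of these changes was not tested.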
